A study of Homo sapiens with 20 samples.

Results

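The genes described here encode the glucose and lactate transporters, the glycolytic enzymes and the regulators that set glycolytic flux. They were taken by symbol from the deposited gene table, all 32 listed symbols were found among its 60719 genes, and all 32 were among the 16327 genes that passed the low-count filter. RNA was sequenced from WT Jurkat cells, a human leukemic T cell line, and from JinB8, a CD47-deficient somatic mutant of Jurkat that is written CD47- here. Each line gave 10 libraries: untreated cells at 1 h, and cells on plates coated with anti-CD3 and 4 µg/ml anti-CD28 (CD3+CD28), cells given 1 µg/ml thrombospondin-1 (TSP1, a secreted ligand of CD47), and cells given both, each at 1, 3 and 6 h. All groups shared a serum-free medium with 5 µg/ml insulin and 200 nM hydrocortisone, both of which act on glucose metabolism. Each combination of line, treatment and time was sequenced once, so the spread within a line or time point stood in for replicate error, and no label gives separate cultures. JinB8 is a single mutant line, and the loss of CD47 cannot be told apart from other differences between the lines. Untreated cells were sequenced at 1 h only, so time on the plate was compared within the 3 treated conditions and cannot be told apart from any drift that untreated cells would also have shown.

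Glucose enters T cells through facilitative transporters, chiefly GLUT1 (SLC2A1) and GLUT3 (SLC2A3), and is trapped as glucose 6-phosphate by hexokinase. Phosphofructokinase commits it to glycolysis, and is stimulated by fructose 2,6-bisphosphate, whose level is set by the PFKFB enzymes and lowered by TIGAR. The lower pathway yields pyruvate, which is reduced to lactate and exported through monocarboxylate transporters, or carried into mitochondria and oxidised by pyruvate dehydrogenase unless pyruvate dehydrogenase kinase blocks it. T cells are known to raise glycolysis after activation, and HIF1A is a transcription factor that drives many of these genes when oxygen is low.

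Library totals ran from 20483642 to 31737616 counts in WT and from 16107921 to 28525524 in CD47-. On the CPM scale, which divides counts by library size, CD47 mRNA averaged 316.6 ± 42.1 in WT and 147.3 ± 12.6 in CD47- (SD, n = 10 each), a log2 difference of -1.10 (SE 0.08, adjusted p = 1.05e-10, edgeR), lower in 10 of 10 matched pairs. CD47 mRNA was thus reduced but present in the mutant. All 12 T cell markers exceeded 1 CPM in both lines. Of 4 B cell markers CD79A and CD79B exceeded 1 CPM, and the list summed to between 34.6 and 53.5 CPM in WT and between 6.83 and 14.0 CPM in CD47-. The 4 fibroblast markers summed to between 1.81 and 6.21 CPM in WT and between 7.54 and 14.7 CPM in CD47-, and myeloid and epithelial markers stayed at or below 4.01 CPM. Their part in any difference between the lines was not tested. The CD47- library of CD3+CD28+TSP1 at 3 h stood apart from the others: it had the lowest total, the lowest median correlation with its line (0.9681, against at least 0.9709 elsewhere) and the highest mitochondrial share (0.663%), so counts are given with and without it.

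Per unit of transcript length, on a length-scaled abundance scale (TPM), the 32 genes spanned a wide range. GAPDH, the triose phosphate dehydrogenase, averaged 2420 TPM over the 20 libraries and held 39.7% of the summed level of the 32 genes. ENO1 (787 TPM), LDHB (500.3 TPM), ALDOA (421.9 TPM), PKM (358.5 TPM), LDHA (310.4 TPM), PGK1 (276.3 TPM) and TPI1 (263.5 TPM) followed. The most abundant transcripts were thus of enzymes from aldolase to lactate dehydrogenase, although BPGM averaged only 12.1 TPM. Transcripts of the steps that admit or commit glucose were lower, with PFKP at 50.3 TPM. SLC2A3 averaged 23.4 TPM, SLC2A1 15.8 TPM, HK1 11.9 TPM and HK2 11.8 TPM. PFKM, the muscle phosphofructokinase, was lowest at 1.95 TPM.

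At most steps 1 isozyme carried most of the transcripts, and at several steps the leading isozyme changed with time or differed between the lines. PFKP, the platelet form, held 78.3% of phosphofructokinase transcripts in WT and 77.7% in CD47-. ALDOA held 86.5% of the aldolase pair in WT and 88.6% in CD47-, and SLC16A1 (MCT1) held 83.3% and 80.2% of the lactate transporter pair. LDHB, the subunit common in oxidative tissues, held 62.6% ± 3.6 of lactate dehydrogenase transcripts in WT and 61.1% ± 6.0 in CD47- (SD, n = 10 each). The hexokinase pair behaved differently in the lines. HK2, the inducible form, held 43.9% ± 0.4 of the pair in WT at 1 h (n = 4), 22.2% ± 0.8 at 3 h and 42.7% ± 1.8 at 6 h (n = 3 each). In CD47- it held 53.4% ± 1.0, 46.8% ± 5.6 and 67.0% ± 1.2 at the same times, so HK2 was the minority form in WT throughout and the majority form in CD47- at 1 and 6 h. SLC2A1 went from 39.6% to 62.1% of the transporter pair between 1 and 6 h in WT and from 31.3% to 56.7% in CD47-. PFKFB2 went from 18.5% to 41.8% of the PFKFB transcripts in WT and from 24.5% to 45.1% in CD47-, and ENO2, the neuronal enolase, went from 12.5% to 3.77% and from 12.4% to 4.97%. These shares depend on the transcript length used: with the longest coding transcript, PDK1 held 45.4% of the PDK1 and PDK3 pair in WT and 45.9% in CD47-, in place of 67.4% and 67.5%. The order of those 2 kinases is therefore not settled by these data. The shares are a description with no test.

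**Figure D1:**
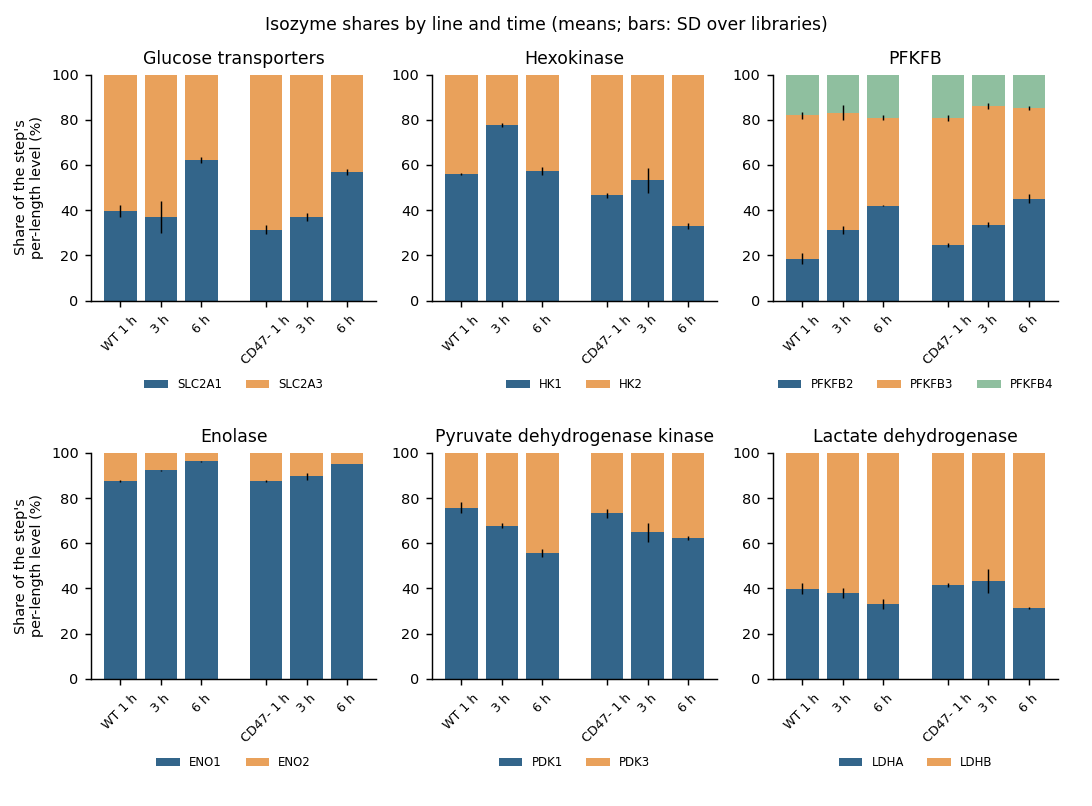
Isozyme shares (percent of the per-length level of a step, stacked bars: mean over 4 libraries at 1 h and 3 libraries at 3 and 6 h, black bars: SD) for 6 steps in WT and CD47- cells. HK2 made up 22.2% of the hexokinase pair in WT at 3 h and 67.0% in CD47- at 6 h, and ENO2 shrank with time in both lines.

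The map of expression by library shows the 32 genes by role, with the libraries ordered by line, time and treatment.

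**Figure D2:**
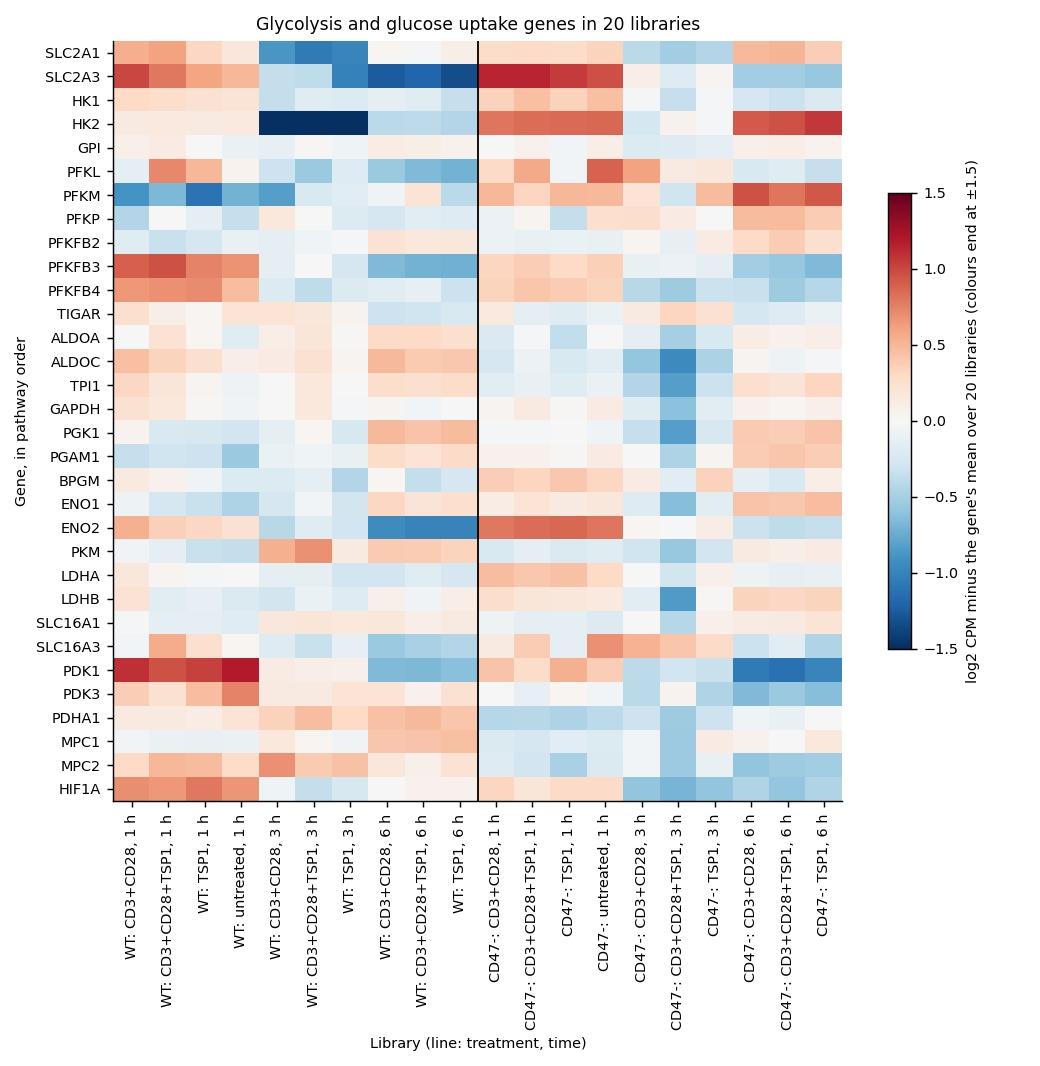
Expression of the 32 genes (rows, by role) in the 20 libraries (columns, by line, time and treatment), as log2 CPM minus the gene's mean over all libraries (colour). SLC2A3, PFKFB3, PDK1 and ENO2 were high at 1 h and low at 6 h in both lines, while HK2 was higher in every CD47- library than in the WT library of the same condition.

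The first question was which genes differed between the lines over all conditions. Of the 32 genes, 4 were higher in CD47- cells (HK2, PFKM, PFKP and BPGM) and 7 were lower (ALDOA, ALDOC, PKM, PDK3, PDHA1, MPC2 and HIF1A) at an adjusted p under 0.05. These were 12.5% and 21.9% of the listed genes, and among all tested genes 19.8% were called higher and 20.6% lower. The median log2 difference was -0.03 for the list and -0.01 for all genes. Since samples of the same treatment and time varied together in both lines, the comparison was also made within the 10 matched pairs (replicate block), which called 12 of the 32 genes higher and 11 lower, against 27.2% and 27.6% of all genes. A fit with a term for time called 24 of the 32, beside 58.8% of all genes. Paired values are given below where the call differed. Without the CD47- library of CD3+CD28+TSP1 at 3 h the unpaired calls were 7 higher and 4 lower, beside 21.3% and 20.5% of all genes, with ENO1 (0.28), LDHA (0.29) and LDHB (0.27) added above the threshold and ALDOA, PKM and HIF1A no longer called. Of the markers of other cell types, CD79A was lower and PDGFRB, COL1A1 and KRT8 were higher in CD47- by the same test, and their part in these differences was not tested.

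At the entry of glucose, HK2 showed the largest difference in the list. It ran from 14.3 to 60.0 CPM in WT (median 41.3) and from 45.3 to 113.0 CPM in CD47- (median 97.4). The log2 difference was 1.08 (SE 0.27, adjusted p = 0.0023), 2.11-fold, and HK2 was higher in CD47- in 10 of 10 pairs. It was 0.69 in the 1 h pairs and 1.40 in the 6 h pairs, and passed in the activated pairs (1.13, adjusted p = 0.029) but not in the unactivated ones (1.06, adjusted p = 0.079). The ranges overlapped only because the CD47- values at 3 h fell below the WT values at 1 h. HK1, the constitutive form, did not pass the test (log2 difference 0.09, SE 0.13). It passed in the 1 h pairs alone (0.145, adjusted p = 0.040) and gave -0.036 in the 6 h pairs (adjusted p = 0.66). SLC2A3 was higher in CD47- in 10 of 10 pairs, with medians of 46.1 CPM in WT and 62.7 CPM in CD47-. Its unpaired log2 difference was 0.44 (SE 0.34, adjusted p = 0.31) and its paired difference 0.53 (SE 0.08, adjusted p = 5.79e-05). Reads of 3 SLC2A3 pseudogenes came to 11.5% of its count. SLC2A1 differed by 0.23 in the paired fit (SE 0.09, adjusted p = 0.046), higher in 7 of 10 pairs. The other 3 pairs were at 1 h, and the 1 h libraries alone gave -0.13 (adjusted p = 0.27) against 0.44 at 6 h (adjusted p = 1.1e-05). At 1 h 25.1% of all genes were called higher and 24.1% lower, and at 6 h 30.1% and 29.5%.

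At the commitment step PFKM was 1.94-fold higher in CD47- (log2 difference 0.96, SE 0.17, adjusted p = 1.04e-04). It was a minor transcript, with 2.02 to 4.99 CPM in WT and 3.53 to 8.44 CPM in CD47-. PFKM overlaps SENP1 on the opposite strand, whose counts were 1350% of its own, and the strand setting of the counting is not given in the sources used here. PFKP was higher by 0.32 (SE 0.10, adjusted p = 0.011), with medians of 109.2 CPM in WT and 140.9 CPM in CD47-, higher in 9 of 10 pairs. PFKP gave 0.20 in the 1 h pairs (adjusted p = 0.21) and 0.66 in the 6 h pairs (adjusted p = 9.16e-08). PFKL, the liver form, passed within pairs but not unpaired (0.37, SE 0.12, adjusted p = 0.016), with 0.14 in the 1 h pairs (adjusted p = 0.61) and 0.40 in the 6 h pairs (adjusted p = 7.09e-04). Of the enzymes that set fructose 2,6-bisphosphate, PFKFB2 was slightly higher (paired 0.11, SE 0.04, adjusted p = 0.047) and PFKFB4 lower (paired -0.22, SE 0.06, adjusted p = 0.0049) in CD47- within pairs, and neither passed unpaired. PFKFB2 shares its locus with YOD1 on the opposite strand, whose counts came to 271% of its own. PFKFB3, the form most often linked to inducible glycolysis, did not pass in either fit. TIGAR did not pass either, with a log2 difference of -0.03 (SE 0.09).

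In the lower pathway the differences were of mixed sign. ALDOC, a second aldolase, was lower in CD47- in 10 of 10 pairs, with a median of 84.0 CPM against 117.5 CPM in WT (log2 difference -0.54, SE 0.10, adjusted p = 2.18e-04). ALDOA ran from 474.5 to 662.2 CPM in WT (median 593.0) and from 381.3 to 580.8 CPM in CD47- (median 507.5), a log2 difference of -0.23 (SE 0.08, adjusted p = 0.028). ALDOA gave -0.17 in the 1 h pairs (adjusted p = 0.17) and -0.17 in the 6 h pairs (adjusted p = 0.0028). BPGM, which makes 2,3-bisphosphoglycerate, had medians of 18.2 CPM in WT and 23.97 CPM in CD47- (0.30, SE 0.10, adjusted p = 0.021). BPGM gave 0.36 in the 1 h pairs (adjusted p = 0.0039) and 0.11 in the 6 h pairs (adjusted p = 0.42), and 0.15 in the activated pairs (adjusted p = 0.47) against 0.55 in the unactivated ones (adjusted p = 0.023). PKM, a pyruvate kinase gene, was lower by the test, with medians of 949.9 CPM in WT and 702.0 CPM in CD47- (-0.34, SE 0.13, adjusted p = 0.039). The PKM difference was not seen at 1 h, where the libraries alone gave 0.02 (adjusted p = 0.82) and the 6 h libraries -0.24 (adjusted p = 1.52e-04). ENO2 was higher in CD47- in 10 of 10 pairs (unpaired 0.46, adjusted p = 0.11, paired 0.48, SE 0.06, adjusted p = 4.98e-06). TPI1 (paired -0.28, adjusted p = 0.015), PGAM1 (paired 0.20, adjusted p = 0.048) and LDHA (paired 0.22, adjusted p = 0.0077) passed within pairs and not unpaired. TPI1 gave -0.26 in the 1 h pairs (adjusted p = 0.019) and 0.0046 in the 6 h pairs (adjusted p = 0.94). PGAM1 gave 0.44 in the 1 h pairs and 0.14 in the 6 h pairs, with a mean of -0.05 over the 3 h pairs, and LDHA 0.35 and 0.15. SLC16A3 also passed within pairs and not unpaired (0.27, adjusted p = 0.044), which gave 0.080 in the 1 h pairs (adjusted p = 0.72) and 0.19 in the 6 h pairs (adjusted p = 0.081). LDHA also passed unpaired with DESeq2 (0.25), limma (0.37) and upper-quartile factors (0.26). SLC16A3, the lactate exporter MCT4, overlaps CSNK1D on the opposite strand with 258% of its counts. GPI, GAPDH, PGK1, ENO1, LDHB and SLC16A1 did not pass in either fit. ENO1 passed with limma (0.37, adjusted p = 0.014), with a time term (0.19, adjusted p = 0.044), in the 1 h pairs (0.43, adjusted p = 0.0013) and in the 6 h pairs (0.19, adjusted p = 0.0011), and LDHB with limma (0.27, adjusted p = 0.033), in the 1 h pairs (0.25, adjusted p = 0.041) and in the 6 h pairs (0.30, adjusted p = 1.49e-04). GAPDH, often used as a reference gene, had medians of 3093 CPM in WT and 3143 CPM in CD47- with a log2 difference of -0.08 (SE 0.08, -0.25 to 0.08 at 2 SE).

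In the group of genes for pyruvate entry into mitochondria all 5 had negative differences, of which 3 passed unpaired, beside 20.6% of all genes, and all 5 passed in the paired fit, beside 27.6%. MPC2, a subunit of the mitochondrial pyruvate carrier, ran from 57.7 to 87.7 CPM in WT (median 69.3) and from 36.1 to 53.1 CPM in CD47- (median 41.8). The ranges did not overlap (log2 difference -0.70, SE 0.09, adjusted p = 9.62e-07). PDHA1, the catalytic subunit of pyruvate dehydrogenase, ran from 58.4 to 76.1 CPM in WT and from 37.6 to 54.1 CPM in CD47-, again without overlap (-0.60, SE 0.08, adjusted p = 1.68e-06). PDK3 was lower in 10 of 10 pairs (-0.55, SE 0.11, adjusted p = 3.54e-04), with values of 64.7 to 104.0 CPM against 39.1 to 64.3 CPM. PDK1 was also lower in 10 of 10 pairs, but the fall of PDK1 over time in both lines made the unpaired spread wide (-0.57, SE 0.28, adjusted p = 0.11, paired -0.52, SE 0.05, adjusted p = 1.42e-06). MPC1 gave -0.21 in the paired fit (SE 0.07, adjusted p = 0.015). It gave -0.12 in the 1 h pairs (adjusted p = 0.13) and -0.35 in the 6 h pairs (adjusted p = 3.64e-04). The activated pairs gave -0.30 (adjusted p = 0.13) and the unactivated ones -0.058 (adjusted p = 0.86). PDHB, DLAT and PDHX, which encode other subunits of the pyruvate dehydrogenase complex, and the kinase PDK2 were not called between the lines in the unpaired fit. PDP1 (-0.49, SE 0.10, adjusted p = 4.42e-04) and PDP2 (-0.33, SE 0.09, adjusted p = 0.0071), the phosphatases that reactivate the complex, were lower in CD47-. MPC2 overlaps DCAF6 on the opposite strand with 68.6% of its counts. HIF1A was lower in CD47- in 10 of 10 pairs, with medians of 69.8 CPM in WT and 48.9 CPM in CD47- (unpaired -0.45, SE 0.18, adjusted p = 0.049, paired -0.46, SE 0.04, adjusted p = 7e-07).

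Of the unpaired calls, 3 were close to the threshold. Leaving out 1 library at a time ended the call of ALDOA in 7 of 20 fits (-0.22 to -0.18), of HIF1A in 10 (-0.42 to -0.38) and of PKM in 12 (-0.34 to -0.26), in each case without a change of direction. These genes also lost their call with other processing: ALDOA with limma (-0.12, adjusted p = 0.22) and without the low-count filter (-0.23), PKM with limma (-0.15, adjusted p = 0.38), upper-quartile factors (-0.31) and no filter (-0.33), and HIF1A with limma (-0.42), upper-quartile factors (-0.43), no filter (-0.45) and a minimum of 1 CPM in every library (-0.44). The libraries were, for ALDOA, CD3+CD28+TSP1 at 1, 3 and 6 h and CD3+CD28 at 6 h in WT and TSP1 at 1 and 3 h and CD3+CD28+TSP1 at 3 h in CD47-. For HIF1A they were every WT library at 1 h and every CD47- library at 3 and 6 h, and for PKM every CD47- library at 1 and 3 h, CD3+CD28 with and without TSP1 at 3 h in WT and every WT library at 6 h. Fewer genes passed in the pairs split by activation. In the 6 activated pairs 6 of the 11 calls held, beside 24.8% of all genes called, and BPGM, PFKP (0.35, adjusted p = 0.056), ALDOA (-0.27, adjusted p = 0.095), PKM (-0.46, adjusted p = 0.051) and HIF1A (-0.44, adjusted p = 0.17) did not pass. In the 4 unactivated pairs 5 held, beside 16.4% of all genes, and HK2, PFKP (0.33, adjusted p = 0.20), ALDOA (-0.13, adjusted p = 0.60), ALDOC (-0.39, adjusted p = 0.076), PKM (-0.087, adjusted p = 0.80) and HIF1A (-0.42, adjusted p = 0.35) did not. In the other direction, PFKL (0.48) and SLC16A3 (0.38) passed without the WT library of CD3+CD28+TSP1 at 1 h, TPI1 (-0.29) without the CD47- library of CD3+CD28 or of TSP1 at 6 h, and LDHA in 6 fits (0.26 to 0.29).

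**Figure D3:**
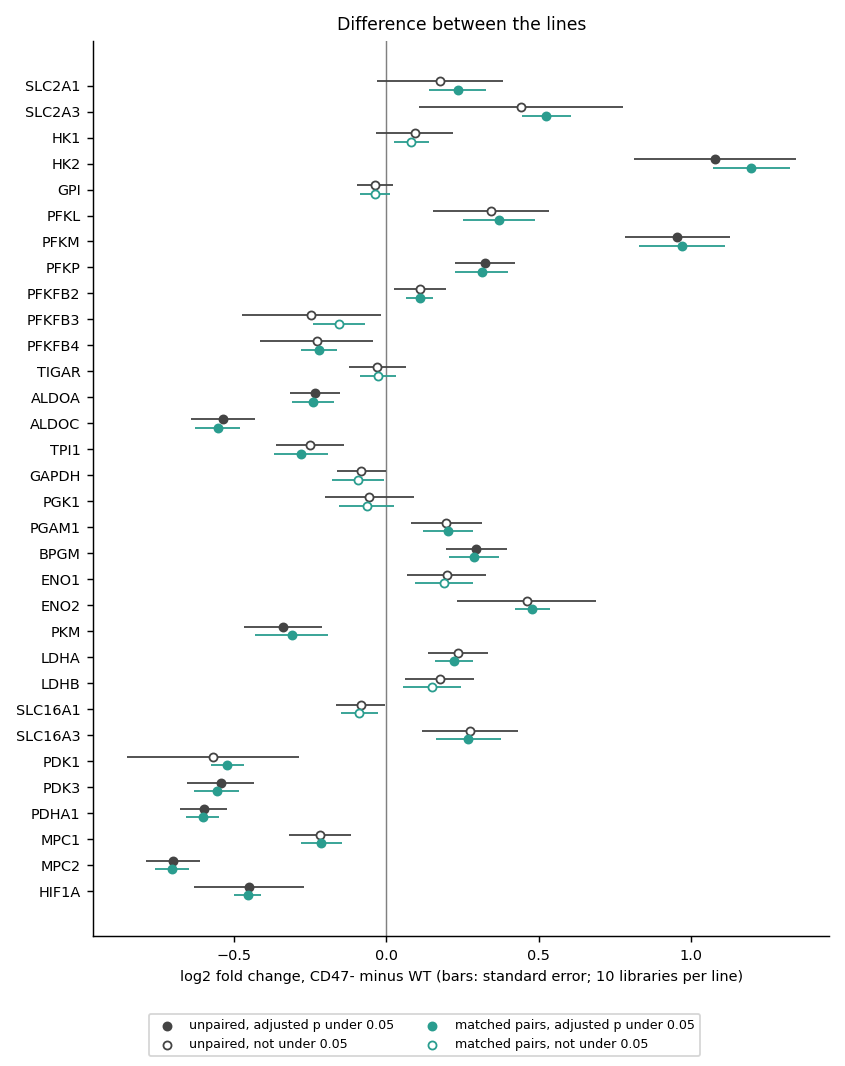
Log2 fold change between the lines (CD47- minus WT, bars: SE, 10 libraries per line) for the 32 genes, fitted without pairing (grey) and within matched pairs (green), filled where the adjusted p was under 0.05. HK2 (1.08) and PFKM (0.96) lie farthest to the right, and MPC2 (-0.70) and PDHA1 (-0.60) farthest to the left.

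The second question was how the genes moved with time on the plate. Between 1 and 6 h, 13 of the 32 genes fell and 9 rose in WT, and 12 fell and 12 rose in CD47-. Among all genes 24.8% fell and 25.7% rose in WT, and 27.0% fell and 26.0% rose in CD47-, and 68.8% of the listed genes were called in WT and 75.0% in CD47-. Without the CD47- library of CD3+CD28+TSP1 at 6 h, 15 of the 32 (46.9%) were called in CD47-, beside 46.6% of all genes. The median log2 change of the list was -0.16 in WT and 0.10 in CD47-, and that of all genes was -0.0031 and -0.0034. In both lines 10 genes fell and 9 rose, and no gene was called in opposite directions. Other measures moved over the same hours. The mitochondrial share of the counts was 0.584% to 0.643% at 1 h and 0.38% to 0.422% at 6 h in WT, and 0.498% to 0.603% and 0.339% to 0.51% in CD47-. Of the 9 tested activation genes 9 fell in WT and 8 in CD47- (median log2 changes -4.07 and -2.34). Among markers of other cell types CD79A rose and PDGFRB fell in both lines. The 4 B cell markers summed to between 34.6 and 40.9 CPM at 1 h and between 45.4 and 53.5 CPM at 6 h in WT, and to between 7.8 and 9.11 CPM and between 11.8 and 14.0 CPM in CD47-. The part of these measures in the changes of the 32 genes was not tested.

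The genes that fell in both lines were SLC2A3, HK1, PFKL, PFKFB3, PFKFB4, ENO2, LDHA, SLC16A3, PDK1 and HIF1A. PDK1, which inhibits pyruvate dehydrogenase, went in WT from 122.0, 111.1 and 116.5 CPM at 1 h (CD3+CD28, CD3+CD28+TSP1 and TSP1, the order used throughout) to 62.0, 61.1 and 60.2 CPM at 3 h and 36.1, 35.7 and 37.0 CPM at 6 h. In CD47- it went from 76.6, 68.9 and 82.6 CPM to 43.7, 46.7 and 45.1 CPM and then 27.4, 26.2 and 28.7 CPM. The 3 time points did not overlap in either line. PDK1 fell by 1.69 on the log2 scale in WT (SE 0.07, adjusted p = 1.01e-09) and by 1.47 in CD47- (SE 0.07, adjusted p = 2.24e-09). SLC2A3 went in WT from 119.6, 102.9 and 90.2 CPM at 1 h to 46.5, 45.7 and 29.6 CPM at 3 h and 25.1, 26.1 and 23.8 CPM at 6 h, and in CD47- from 132.0, 131.5 and 124.0 CPM to 63.9, 52.4 and 61.5 CPM and 41.7, 41.6 and 40.4 CPM. SLC2A3 thus fell by 2.05 in WT (SE 0.10, adjusted p = 4.73e-09) and by 1.65 in CD47- (SE 0.10, adjusted p = 1.77e-08), and no 6 h library reached a 1 h library. ENO2 fell by 1.39 (SE 0.08) in WT and by 1.17 (SE 0.07) in CD47-. PFKFB4, which also makes fructose 2,6-bisphosphate, fell by 0.88 and by 0.80. LDHA fell by 0.30 in WT (adjusted p = 0.0056) and by 0.54 in CD47- (adjusted p = 6.38e-05).

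HIF1A fell by 3 h in both lines and stayed below its 1 h values. In WT it stood at 107.8, 104.6 and 115.8 CPM at 1 h, 63.6, 52.2 and 56.6 CPM at 3 h and 66.7, 70.0 and 69.7 CPM at 6 h. In CD47- it stood at 83.5, 75.6 and 81.4 CPM, then 44.2, 41.1 and 44.2 CPM, then 48.9, 44.7 and 48.9 CPM. The change from 1 to 6 h was -0.67 in WT (SE 0.07, adjusted p = 2.02e-06) and -0.76 in CD47- (SE 0.07, adjusted p = 6.09e-07). The difference between those changes did not pass (-0.09, SE 0.09, adjusted p = 0.58). From 3 to 6 h HIF1A rose in WT (0.26, SE 0.07, adjusted p = 0.0069) and gave 0.14 in CD47- (SE 0.07, adjusted p = 0.13).

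The genes that rose in both lines were PFKM, PFKFB2, PGK1, PGAM1, ENO1, PKM, SLC16A1, PDHA1 and MPC1, most of them in the lower pathway or at pyruvate entry. PGK1, the ATP-yielding phosphoglycerate kinase, stood in WT at 807.2, 665.0 and 660.5 CPM at 1 h and 1095, 1047 and 1087 CPM at 6 h, and in CD47- at 768.9, 765.9 and 782.9 CPM and 1021, 1006 and 1045 CPM. Every 6 h library was above every 1 h library (log2 change 0.60, SE 0.11, adjusted p = 4.36e-04 in WT, and 0.41, SE 0.11, adjusted p = 0.0068 in CD47-). PGAM1 rose by 0.58 and 0.34, ENO1 by 0.47 and 0.28, PFKFB2 by 0.43 and 0.40, PDHA1 by 0.32 and 0.37 and MPC1 by 0.52 and 0.28 in WT and CD47-, respectively. These rises were smaller than the falls of SLC2A3, PDK1, ENO2 and PFKFB3. GPI, ALDOC, GAPDH, LDHB and MPC2 were called in neither line.

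Without the CD47- library of CD3+CD28+TSP1 at 3 h, 15 genes rose and 13 fell in CD47-, beside 28.8% and 30.0% of all genes; that library enters the fit of every contrast through the shared estimate of the spread. Leaving out 1 library at a time ended 1 of the 22 calls in WT (SLC16A1, in 8 fits) and 10 of the 24 in CD47-. Those 10 were ALDOA, ENO1, MPC1, PFKL, PFKM, PGAM1, PGK1, PKM, SLC16A1 and SLC16A3. The CD47- library of CD3+CD28+TSP1 at 6 h mattered most: without it PGK1 gave 0.33 (adjusted p = 0.055) and PGAM1 0.25 (adjusted p = 0.073). The CD47- libraries of TSP1 and CD3+CD28 at 1 h and of CD3+CD28 at 6 h each ended 3 or more of these calls, with PKM between 0.27 and 0.29 in the fits that lost its call and ENO1 between 0.22 and 0.31. Without the CD47- library of CD3+CD28+TSP1 at 1 h the calls of PFKL, PFKM and SLC16A3 (-0.35, adjusted p = 0.051) were lost. With the CD47- libraries fitted alone those of ALDOA (0.30), ENO1 (0.29) and MPC1 (0.30) were lost.

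**Figure D4:**
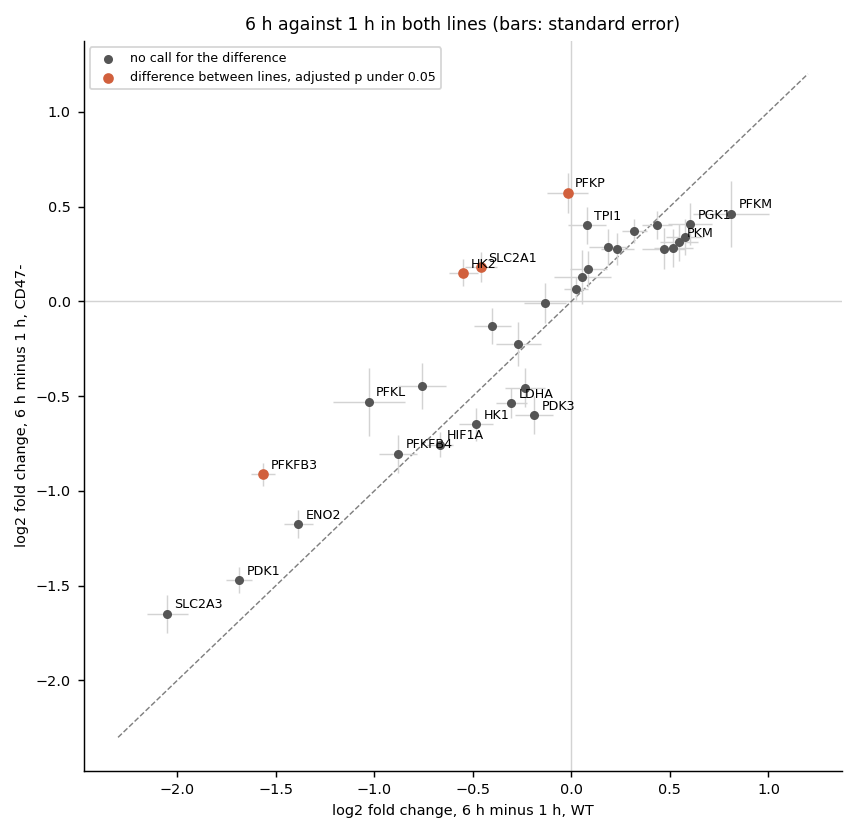
Log2 fold change from 1 to 6 h in WT (horizontal axis) against CD47- (vertical axis) for the 32 genes (points, bars: SE), with the line of equal change. SLC2A3, PDK1, PFKFB3 and ENO2 fell in both lines, and SLC2A1, HK2, PFKP and PFKFB3, whose changes differed between the lines by the test, lie above the line of equal change.

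The 3 h libraries showed that many of these genes did not move steadily. At 3 h against 1 h, 13 genes fell and 3 rose in WT (PKM, SLC16A1 and PDHA1), against 17.4% and 16.9% of all genes, and 17 fell and 1 rose (TIGAR) in CD47-, against 20.1% and 18.0%. The median change was -0.15 in WT and -0.33 in CD47-, and 0.0032 and 0.0050 for all genes. The 10 genes that fell in both lines were SLC2A1, SLC2A3, HK1, HK2, PFKFB3, PFKFB4, ENO2, LDHA, PDK1 and HIF1A. In CD47- 7 genes fell that were not called in WT (GPI, ALDOC, TPI1, GAPDH, PGK1, ENO1 and LDHB). The difference between the lines in this change was not called for any of the 7. The library that stood apart was the lowest of the 3 h libraries for 6 of those 7. PGK1, for example, stood at 612.4, 440.2 and 660.5 CPM at 3 h in CD47-, and LDHB at 535.9, 332.7 and 607.1 CPM. Without that library 16 genes fell and 6 rose in CD47-, beside 18.5% and 18.9% of all genes, and LDHB (-0.27, adjusted p = 0.058) and GPI (-0.15) no longer passed. GPI lost its call in 10 of 20 fits with 1 library left out (-0.19 to -0.15). TIGAR lost its call in 4 of the 20 (0.19 to 0.27, without CD3+CD28+TSP1 or TSP1 in CD47- at 1 h or at 3 h). With limma the calls of GPI (-0.025), GAPDH (-0.21), ENO1 (-0.15) and LDHB (-0.32) were lost, and with the CD47- libraries fitted alone those of GPI (-0.16), TIGAR (0.31) and GAPDH (-0.35). The calls of GAPDH (-0.27), TPI1 (-0.26) and LDHB (-0.41) were lost without the CD47- library of CD3+CD28+TSP1 at 1 h. In WT 6 of the 16 calls were lost in fits that left out 1 library. SLC16A1 lost its call in 5 fits (0.24 to 0.29, without CD3+CD28+TSP1 or TSP1 at 1 h or any 3 h library). LDHA lost it in 5 (-0.27 to -0.19, without CD3+CD28 or TSP1 at 1 h or any 3 h library) and BPGM in 5 (-0.33 to -0.26, without any treated 1 h library or CD3+CD28 or TSP1 at 3 h). PDHA1 (0.20 to 0.21), PFKL (-0.55 to -0.50) and SLC16A3 (-0.34 to -0.30) lost it without the WT library of CD3+CD28+TSP1 at 1 h or at 3 h.

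Between 3 and 6 h, a contrast chosen after the values were seen, 9 genes rose and 6 fell in WT (20.6% and 18.8% of all genes), and 17 rose and 9 fell in CD47- (19.0% and 19.9%). SLC2A1, HK2, PFKFB2, ALDOC, PGK1, PGAM1 and ENO1 rose in both lines, and SLC2A3, PFKFB3, TIGAR, ENO2, PDK1 and MPC2 fell in both. The 2 glucose transporters therefore went opposite ways, SLC2A1 up by 1.00 in WT and 0.92 in CD47- (SE 0.08 each) and SLC2A3 down (-0.68 and -0.52, SE 0.10 each). Without the library that stood apart 15 rose and 11 fell in CD47-, beside 16.9% and 20.5% of all genes. Several of the smaller changes lost their call with 1 library left out. In WT these were MPC2 (-0.36 to -0.23) and PFKFB2 (0.19 to 0.25), each without CD3+CD28 at 3 or 6 h or CD3+CD28+TSP1 at 6 h, ALDOC (0.25 to 0.28) without CD3+CD28 or TSP1 at 3 or 6 h, PGAM1 (0.31) without CD3+CD28 at 6 h and HIF1A (0.19 to 0.20) without CD3+CD28+TSP1 at 3 or 6 h. In CD47- MPC2 lost its call in 7 fits (-0.36 to -0.22), PFKP in 5, PFKL in 4 and SLC16A1 in 3. GAPDH (0.33), PDK3 (-0.33) and PFKFB2 (0.22) lost theirs in CD47- without the 6 h library of CD3+CD28+TSP1. With the CD47- libraries fitted alone GAPDH (0.36), SLC16A1 (0.26) and MPC2 (-0.33) were not called, and with limma GAPDH (0.056) was not.

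**Figure D5:**
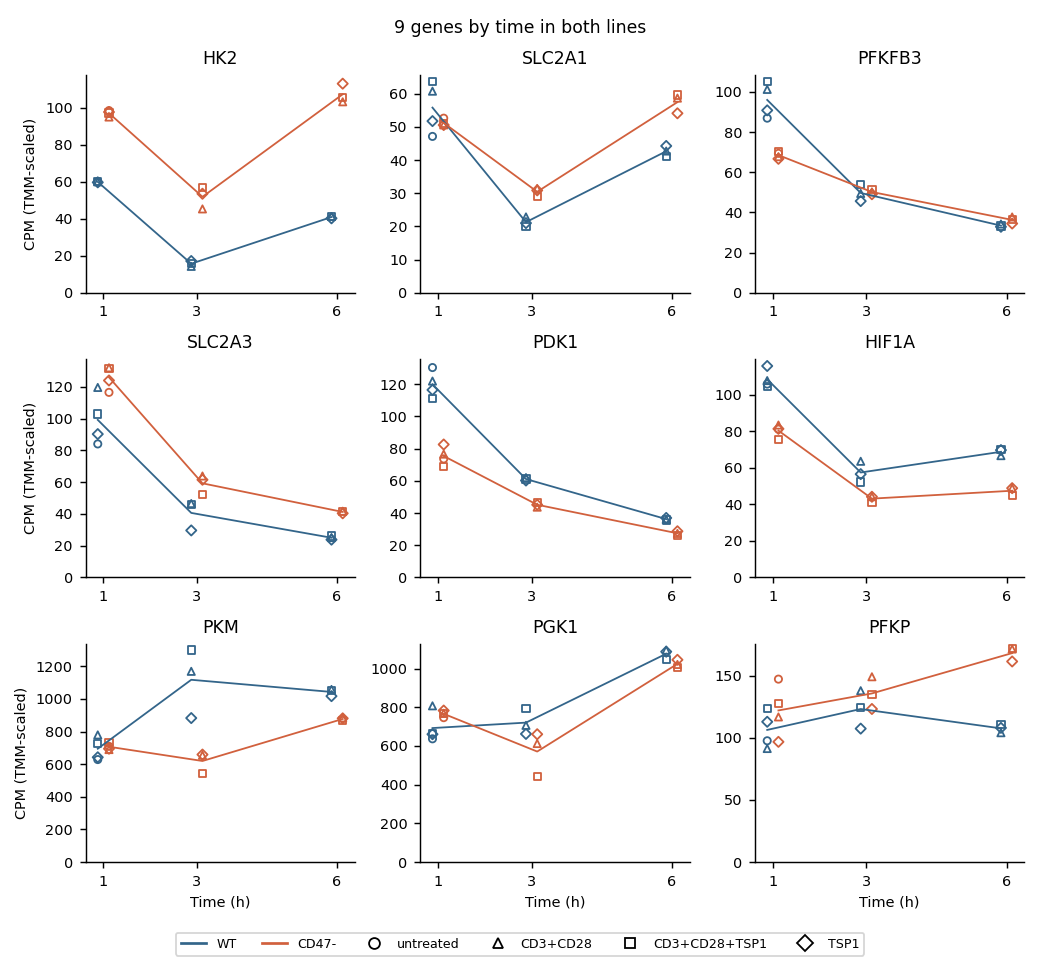
CPM of 9 genes by time on the plate (hours) in WT and CD47- cells (points: libraries, lines: means, with the untreated library included at 1 h). HK2 and SLC2A1 dipped at 3 h and rose again by 6 h, in WT to means below those at 1 h. PDK1 and SLC2A3 declined throughout, and PKM was higher at 3 h in WT alone.

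The third question was whether the time course differed between the lines. For 6 h against 1 h the difference itself passed for 4 of the 32 genes (SLC2A1, HK2, PFKP and PFKFB3), or 12.5%, against 16.6% of all genes, and all 4 differences were positive. For 3 h against 1 h, tested after the values were seen, 5 of 32 passed (SLC2A1, HK2, PFKFB3, SLC16A3 and PKM), or 15.6%, against 4.28% of all genes. SLC2A1, HK2 and PFKFB3 passed at both times. They stand at the entry of glucose, its phosphorylation and the synthesis of the activator of phosphofructokinase. Other genes of the same steps (SLC2A3, HK1, PFKFB2 and PFKFB4) were not called for the difference at either time. The lines share no library in these contrasts, but the contrasts at 3 and 6 h share the 1 h libraries.

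HK2 was almost level across treatments at 1 h in both lines and at 6 h in WT. At 3 h, and at 6 h in CD47-, it varied more. In WT it stood at 59.9, 60.0 and 59.7 CPM at 1 h, with the untreated library at 60.0 CPM, then 14.3, 15.7 and 17.2 CPM at 3 h and 41.2, 41.3 and 40.2 CPM at 6 h. In CD47- it stood at 95.0, 97.1 and 97.7 CPM at 1 h, with the untreated library at 98.5 CPM, then 45.3, 56.8 and 53.5 CPM at 3 h and 103.2, 105.6 and 113.0 CPM at 6 h. Both lines dipped at 3 h, and only CD47- returned to its 1 h level or above. HK2 fell 3.81-fold by 3 h in WT (log2 change -1.93, SE 0.08) and 1.87-fold in CD47- (-0.90, SE 0.07), a difference of 1.03 (SE 0.11, adjusted p = 1.9e-04). By 6 h the change was -0.55 in WT (SE 0.07, adjusted p = 2.7e-05) and 0.15 in CD47- (SE 0.07, adjusted p = 0.092), a difference of 0.70 (SE 0.10, adjusted p = 4.97e-04).

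SLC2A1 followed the same course at a lower amplitude. It stood in WT at 60.8, 63.6 and 51.8 CPM at 1 h, 22.9, 20.01 and 21.0 CPM at 3 h and 42.8, 41.0 and 44.3 CPM at 6 h. In CD47- it stood at 50.6, 51.0 and 50.6 CPM, then 31.5, 29.0 and 30.9 CPM, then 58.7, 59.7 and 54.1 CPM. WT was thus the higher line in those treatments at 1 h and the lower one at 3 and 6 h. The difference between the changes was 0.73 at 3 h (SE 0.12, adjusted p = 0.0047) and 0.64 at 6 h (SE 0.11, adjusted p = 0.0020).

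PFKFB3 fell steadily in both lines, from a higher start in WT. It stood in WT at 101.2, 105.0 and 90.8 CPM at 1 h, 49.4, 54.0 and 45.6 CPM at 3 h and 34.2, 33.2 and 32.9 CPM at 6 h. In CD47- it stood at 67.7, 70.2 and 66.7 CPM, then 50.2, 51.2 and 49.0 CPM, then 37.7, 36.6 and 34.5 CPM. The lines overlapped at 3 h, and at 6 h every CD47- library lay slightly above every WT library (0.13 over the 6 h pairs, adjusted p = 0.079), whereas at 1 h all WT libraries lay above all CD47- libraries (log2 difference -0.49 over the 1 h pairs, adjusted p = 1.04e-04). PFKFB3 fell by 1.56 in WT (SE 0.06) and by 0.91 in CD47- (SE 0.06), a difference of 0.65 (SE 0.09, adjusted p = 2.19e-04).

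PFKP rose in CD47- (0.57, SE 0.10, adjusted p = 3.86e-04), from 116.7, 127.2 and 96.7 CPM at 1 h to 171.3, 171.5 and 161.3 CPM at 6 h. In WT it stood at 91.3, 123.4 and 112.8 CPM at 1 h and 104.0, 110.6 and 107.9 CPM at 6 h (-0.02, SE 0.11). The difference of 0.59 (SE 0.15, adjusted p = 0.016) was lost without the CD47- library of CD3+CD28 at 1 h (0.57), that of TSP1 at 1 h (0.53) or the WT library of CD3+CD28+TSP1 at 6 h (0.56), each with an adjusted p of at most 0.059. The untreated CD47- library at 1 h held 147.1 CPM, more than the treated libraries of that time.

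PKM and SLC16A3 differed at 3 h but not, by the test, at 6 h. PKM stood in WT at 779.3, 728.7 and 642.2 CPM at 1 h and 1169, 1300 and 882.6 CPM at 3 h (0.63, SE 0.10, adjusted p = 2.32e-04), and in CD47- at 689.4, 733.6 and 694.9 CPM and 654.4, 545.1 and 658.9 CPM (-0.19, SE 0.10, adjusted p = 0.14). The difference at 3 h was -0.82 (SE 0.14, adjusted p = 0.0062). By 6 h PKM was above its 1 h values in both lines, at 1058, 1053 and 1017 CPM in WT and 883.8, 866.6 and 880.8 CPM in CD47-. SLC16A3 gave a difference of 0.76 at 3 h (SE 0.17, adjusted p = 0.027), which was lost in 5 of 20 fits that left out 1 library (CD3+CD28+TSP1 at 1 and 3 h in WT, and CD3+CD28 at 1 and 3 h and TSP1 at 1 h in CD47-, 0.60 to 0.73). Without the library that stood apart the difference passed for 6 genes at 3 h, 5 positive and 1 negative, and for 9 at 6 h, 7 positive and 2 negative, beside 6.5% and 26.1% of all genes. HK2, SLC2A1 and PFKFB3 passed at both times in all 20 such fits.

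The fourth question was whether engagement of CD3 and CD28, or TSP1, altered these genes. No listed gene passed for any of these contrasts among the genes kept by the low-count filter, by edgeR, DESeq2 or limma. Each treatment had a single term over all its times in a line, so a response at a single time point was not tested. Without the low-count filter 1 gene (LDHB, lower) passed for activation with TSP1 in CD47-, beside 1.31% of all genes. For CD3+CD28+TSP1 against TSP1 in WT, 3 of the 32 genes had an unadjusted p under 0.05, and 816 of the 16327 genes tested did. In all 15 genes, or 0.0919%, passed after adjustment. The 3 were SLC2A3 (log2 difference 0.31, SE 0.10, adjusted p = 0.63), PKM (0.26, SE 0.10) and PFKFB3 (0.16, SE 0.06). In CD47- 4 of the 32 genes and 2636 of all genes had an unadjusted p under 0.05, and 0.0% of all genes passed. For CD3+CD28 against the single untreated library the counts were 5 of 32 in WT and 1 in CD47- (1359 and 657 of all genes), and 0.0% passed in either line. With a single library in the untreated arm, 0 of the 9 tested activation genes passed there either (median log2 difference 1.35 in WT), so that contrast gives little information on the 32 genes. For TSP1 added to CD3+CD28 they were 0 and 0 of 32 (366 and 1771 of all genes), and 0.0% passed in either line. The difference between the lines in activation had 6 of 32 and 1048 of all genes under 0.05, and 0.0% passed. Activation itself was detectable in WT in the presence of TSP1: 6 of 9 tested immediate-early and activation genes rose, among them FOS (1.39, SE 0.17, adjusted p = 0.014), EGR1 (2.03, SE 0.28, adjusted p = 0.018) and CD69 (2.04, SE 0.28, adjusted p = 0.018), against 0 of 9 in CD47-. The difference between the lines in that response was not called for any of these genes. All log2 differences of the 32 genes for activation in the presence of TSP1 lay between -0.15 and 0.32 in WT and between -0.34 and 0.31 in CD47-. Since 0 of 9 activation genes passed in CD47-, this contrast also gives little information on the 32 genes in that line.

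PKM makes 2 enzymes through a choice between a pair of exons, M1 in muscle and neurons and M2 in proliferating cells. The exons lie next to each other on chromosome 15 (GRCh38, minus strand), M1 at chr15:72203022-72203188 and M2 at chr15:72202454-72202620, have 167 bases each and share 105 bases (62.9%), which lets reads tell them apart. They are shown because the isoform counts rest on them, 5′ to 3′ on the coding strand with the differing bases in capitals.
M1 exon: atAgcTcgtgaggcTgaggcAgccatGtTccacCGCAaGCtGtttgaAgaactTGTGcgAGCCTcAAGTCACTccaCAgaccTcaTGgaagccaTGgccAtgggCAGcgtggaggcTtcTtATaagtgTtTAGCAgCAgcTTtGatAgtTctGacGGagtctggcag
M2 exon: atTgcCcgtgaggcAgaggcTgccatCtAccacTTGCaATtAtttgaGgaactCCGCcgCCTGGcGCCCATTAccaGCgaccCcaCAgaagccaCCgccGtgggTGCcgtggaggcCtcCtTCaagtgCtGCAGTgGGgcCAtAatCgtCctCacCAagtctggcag
Transcripts with the M2 exon held 99.1% ± 0.5 of the M1 and M2 counts in WT (SD, n = 10, 98.3% to 99.6%) and 98.5% ± 1.4 in CD47- (n = 10, 94.7% to 99.7%). The ranges overlapped, and the difference of -0.60 percentage points was within the spread (p = 0.224, two-sided permutation test with 100000 resamples). The M1 transcripts had 56 to 473 estimated counts per library against 8438 to 29985 for M2, and the M2 transcript PKM-202 alone held 87.1% of PKM counts. Most of the remaining PKM counts were assigned to noncoding or unannotated transcripts, and the level of each form was not tested by itself. With the most abundant transcript of each form alone the difference was -0.26 points (p = 0.33, permutation test). These permutations did not use the matched pairs, and a difference within pairs was not tested.

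HIF1A is known to drive many of the glycolysis genes described above. From 1 to 6 h the glycolysis genes went both ways. In both lines 10 fell, SLC2A3, LDHA and PDK1 among them, and 9 rose, PGK1, ENO1 and PKM among them. Known targets of HIF1A were not counted apart from the rest, so a shared direction of its targets was not tested. The other genes of the HIF pathway were examined as a list chosen by function. Of 21 tested, 15 fell and 2 rose from 1 to 6 h in WT, and 13 fell and 2 rose in CD47-, with median log2 changes of -0.96 and -0.54 against -0.0031 and -0.0034 for all genes. In WT the smallest p belonged to P4HA1, a collagen prolyl hydroxylase (-1.98, SE 0.08), VEGFA, the endothelial growth factor (-1.29, SE 0.06), and BHLHE40, a transcriptional repressor (-1.85, SE 0.10). In CD47- it belonged to BNIP3L (-1.63, SE 0.08) and BNIP3 (-1.54, SE 0.08), which act in mitophagy, and to ARNT, the partner of HIF1A (-1.21, SE 0.07). The share of all genes that fell was 24.8% in WT and 27.0% in CD47-. The change differed between the lines for 9 of the 21 genes, beside 16.6% of all genes, with 4 less negative or more positive in CD47- (VEGFA, ADM, BHLHE40 and P4HA1) and 5 more negative or less positive (ARNT, EGLN3, CA9, BNIP3L and VHL). Between the lines themselves 4 were higher in CD47- by edgeR, beside 19.8% of all genes: EGLN3 (0.81), ANKRD37 (0.74), EPAS1 (0.53) and BHLHE40 (0.75), while HIF1A was lower.

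The HIF core motif was looked up in the 250 bases before each RefSeq gene start (GRCh38.p14), on both strands, as ACGTG and as CACGTG, which contains ACGTG and is also the E-box bound by MYC family proteins. Of the 32 genes 29 were matched in the table, and a gene with several starts has several windows. The 29 genes had 58 windows (2.0 per gene), and the 10698 tested genes found in the table had 15480 (1.45 per gene). Counted by window, ACGTG was in 20 of the 58 (34.5%) against 22.0% of all windows of tested genes, and CACGTG in 6 (10.3%) against 8.22%. Counted by gene, 17 of the 29 (58.6%) had ACGTG in at least 1 window against 28.4% of the tested genes, a share that grows with the number of windows per gene. Windows of 4 genes are shown, those of HK2 and LDHA with 2 CACGTG each and those of PDK1 and PGK1 as genes that fell and rose with time. ACGTG or its complement CACGT is in capitals, all are on the plus strand and run 5′ to 3′.
HK2, chr2:74834920-74835169: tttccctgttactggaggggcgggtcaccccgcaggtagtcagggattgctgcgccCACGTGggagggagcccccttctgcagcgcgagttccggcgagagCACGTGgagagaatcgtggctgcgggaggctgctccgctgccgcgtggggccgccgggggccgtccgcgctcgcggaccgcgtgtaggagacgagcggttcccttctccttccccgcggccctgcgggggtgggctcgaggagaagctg
LDHA, chr11:18394313-18394562: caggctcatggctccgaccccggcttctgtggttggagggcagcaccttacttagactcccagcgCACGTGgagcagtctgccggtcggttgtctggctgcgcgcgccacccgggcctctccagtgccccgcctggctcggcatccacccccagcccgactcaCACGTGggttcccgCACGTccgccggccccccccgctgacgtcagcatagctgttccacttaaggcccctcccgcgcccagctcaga
PDK1, chr2:172555840-172556089: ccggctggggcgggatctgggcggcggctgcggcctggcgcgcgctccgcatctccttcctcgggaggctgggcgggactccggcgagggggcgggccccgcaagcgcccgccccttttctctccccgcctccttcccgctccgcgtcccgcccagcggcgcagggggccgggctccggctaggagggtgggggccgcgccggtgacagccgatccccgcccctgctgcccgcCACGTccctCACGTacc
PGK1, chrX:78103998-78104247: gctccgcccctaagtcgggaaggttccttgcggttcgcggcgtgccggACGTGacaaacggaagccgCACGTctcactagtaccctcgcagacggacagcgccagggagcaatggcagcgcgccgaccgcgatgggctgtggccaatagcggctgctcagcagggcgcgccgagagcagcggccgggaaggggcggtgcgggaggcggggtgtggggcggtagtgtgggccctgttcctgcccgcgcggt
A palindromic CACGTG, which matches on both strands, is marked once, so LDHA holds 3 marked stretches and HK2, PDK1 and PGK1 hold 2 each.

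Further lists chosen by function place the 32 genes beside their neighbours in metabolism. Of 30 tested genes of a list of 50 other glycolysis and pyruvate genes, 7 were higher and 5 lower in CD47-, beside 19.8% and 20.6% of all genes. GPD2, the mitochondrial glycerol phosphate dehydrogenase, averaged 14.0 CPM in WT and 0.197 CPM in CD47-, a level near that of 3 counts, so it passed the low-count filter through the WT libraries and no fold is given. SLC2A4, the insulin-responsive transporter GLUT4, averaged 0.22 CPM in the WT libraries against 0.945 CPM in the mutant. It passed the filter through the CD47- libraries instead. GPD2 and SLC2A4 are both among the calls counted above. PGM1 was higher in CD47- by 0.34 (SE 0.07). From 1 to 6 h 13 rose and 6 fell in WT, and 13 rose and 5 fell in CD47- (all genes: 25.7% and 24.8%, and 26.0% and 27.0%), SLC2A6, a lysosomal hexose transporter, rising by 1.60 in WT (SE 0.16) and 1.43 in CD47- (SE 0.15). Of 12 tested genes of the pentose phosphate list 6 rose and 3 fell in WT, and 7 rose and 2 fell in CD47-. H6PD (0.93, SE 0.10) and PGD (0.42, SE 0.06) were among those that rose in WT, and PGLS (1.22, SE 0.12) and H6PD (0.57, SE 0.10) among those in CD47-. PRPS2 fell in both lines (-0.59 in WT and -0.57 in CD47-). Between the lines TKTL1 was higher in CD47- (1.12, SE 0.17), and TKT (-0.38, SE 0.08) and PRPS2 (-0.40, SE 0.14) were lower.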

How the data were processed

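Per the labels and the methods of the study, the authors trimmed paired reads of poly(A)-selected libraries with cutadapt 1.18, aligned them with STAR 2.4.2a to GRCh38 and deposited RSEM 1.3.3 expected counts per gene and per transcript (GENCODE 36 annotation). The strand setting is not given in the sources used here. The batch correction and filters of the study were not repeated. 2 columns of the deposited tables matched no sample and were not used.

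Expected counts were rounded to whole numbers. Genes were kept with filterByExpr by line (minimum count 10, total 15), scaled by TMM and tested with the quasi-likelihood test of edgeR 4.0.16 in R 4.3.3, with Benjamini-Hochberg adjustment over all 16327 genes and a threshold of 0.05. The line comparison had the line as its term. For the other contrasts every treatment within a line had its own term, beside terms for 3 h and 6 h in that line. Values are TMM-scaled CPM, and ± is the SD. TPM used the transcript lengths of GENCODE 44 in the reference, for order and shares only. Fold changes are on the log2 scale, and 2 SE ranges are given where stated. Libraries of the same treatment and time deviated together in the 2 lines (correlations of 0.126 to 0.602 over 10 pairs), so paired values (replicate block) are given where they change a call. No pair of libraries was a duplicate (lowest chi-square per degree of freedom 5.04). The lowest values were for CD3+CD28 against TSP1 alone: 5.04 in WT at 6 h, 5.93 in CD47- at 6 h and 6.955 in CD47- at 1 h. CD3+CD28 against CD3+CD28+TSP1 gave 9.68, 10.5 and 8.11 there, so the activated libraries were the less alike. In WT the order was the other way at 1 h (54.85 against 23.52) and 3 h (37.15 against 13.21). p-values measure the spread between libraries that differ in treatment or time. At these depths 3 counts correspond to between 0.0945 and 0.186 CPM. Alternatives were DESeq2 1.42.0, limma 3.58.1 (voom, quantile scaling), upper-quartile factors, other filters, subsets of pairs and each library left out. The scripts were tested on simulated data. All 32 genes are described, with up to 3 genes per related list and contrast by smallest p. The genes and lists were chosen with earlier results of these data known. Gene starts and sequences are from RefSeq (GRCh38.p14), and SLC2A3, SLC16A1 and PFKFB2 had no entry.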

Additional observations from a re-analysis of the deposited data

Results flagged for a closer look

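In 64 groups of 10 libraries tested for a value far from the rest, 3 were found. Chance gives about 1 in 20 such groups, which is about the number found. GAPDH stood at 2005 CPM and LDHB at 332.7 CPM in the CD47- library of CD3+CD28+TSP1 at 3 h, each far below the other 9 CD47- libraries. PDK3 stood at 104.0 CPM in the untreated WT library at 1 h, above the other 9 WT libraries.

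The change from 1 to 6 h differed between the lines, by the test of the difference itself, for SLC2A1 (0.64 on the log2 scale, CD47- minus WT), HK2 (0.70), PFKP (0.59) and PFKFB3 (0.65). The change from 1 to 3 h differed for SLC2A1 (0.73), HK2 (1.03), PFKFB3 (0.55), PKM (-0.82) and SLC16A3 (0.76).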

How the results depend on the processing

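The comparison of the lines called 11 of the 32 genes. It called 23 within the 10 matched pairs (replicate block), 24 with a time term, 6 in the 6 activated pairs, 5 in the 4 unactivated pairs, 19 in the 4 pairs at 1 h and 21 in the 3 pairs at 6 h. The shares of all genes called were 40.4%, then 54.9%, 58.8%, 24.8%, 16.4%, 49.2% and 59.6% in the same order. The split of higher and lower calls was 4 and 7, against 5 and 5 with upper-quartile factors, 4 and 4 without the low-count filter and 8 and 4 with limma voom, which changed the test and the scaling together. The shares of all genes for these alternative splits are not given here, so no conclusion about the listed genes is drawn from them. Activation with TSP1 present in CD47- called 1 gene without the low-count filter (1.31% of all genes) and 0 otherwise. The difference between the lines at 3 h called 5 genes, 9 with DESeq2 and 9 without the filter (4.28%, 6.55% and 3.4% of all genes), and that at 6 h called 4, 8 with voom and 7 without the filter (16.6%, 16.9% and 6.72%). With 1 library left out, the 6 h change in CD47- called between 15 and 28 genes (46.6% and 58.9% of all genes in those fits) and the difference at 6 h between 3 and 9 (at 9, 26.1%). Genes whose difference between the lines reversed had all failed the unpaired test except PKM, which gave 0.023 in the 1 h pairs. These were SLC2A1 in the 1 h pairs (-0.13), HK1 (-0.036), PFKFB3 (0.13), TPI1 (0.0046), GAPDH (0.069), TIGAR (0.11) and SLC16A1 (0.031) in the 6 h pairs, and GAPDH (0.047) and SLC16A1 (0.0068) in the unactivated pairs. GPI gave 0.048 with voom, 0.037 in the unactivated pairs, 0.0019 in the 1 h pairs and between -0.053 and 0.00046 with 1 library left out (positive without the CD47- library of CD3+CD28+TSP1 at 3 h). TIGAR gave 0.0015 with upper-quartile factors, 0.0030 in the activated pairs and between -0.063 and 0.0084 with 1 library left out (positive without CD3+CD28 at 1 h in WT). PGK1 gave 0.069 with voom, 0.11 in the unactivated pairs, 0.14 in the 1 h pairs and between -0.10 and 0.030 with 1 library left out (positive without the 3 h library that stood apart, and 0.010 without CD3+CD28 at 6 h in WT). The cause was not tested. PFKM, the lowest of the genes, had 48 counts in 1 library, and its rise to 6 h in CD47- was not called with DESeq2, voom or without the filter.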
